A study of Sus scrofa with 8 samples.

Results

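CREM, NR4A3, NR4A2, PDE4C and PPARGC1A take part in the response of cells to cyclic AMP. Their signals were compared between the back muscle of Korean native pigs and of Yorkshire pigs. They are 5 of the 6765 genes named on a porcine Affymetrix array by probe sets annotated with exactly 1 gene symbol, and they were represented by 9 of its 24123 probe sets, every one with 1 of these names. CREM had 4 probe sets, NR4A3 had 2, and the other genes had 1 each. The genes were chosen from the difference between the breeds on these same arrays, so their breed differences are given as a description without a test. The samples were total RNA from a back muscle, the longissimus dorsi, with 4 Korean native pigs of 7 months and 4 Yorkshire pigs of 6 months. Each is labelled a biological replicate and was hybridised to its own array. The pigs were raised alike, per the labels, but since every Korean native pig was older than every Yorkshire pig, breed and age cannot be told apart. Each array measured the RNA of a whole piece of muscle, in which fewer cells of a type and less RNA per cell cannot be told apart.

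In this pathway a hormone such as adrenaline binds a receptor coupled to a stimulatory G protein, adenylyl cyclase makes cyclic AMP, and protein kinase A phosphorylates the factor CREB, which switches on target genes. Phosphodiesterases end the signal by breaking down cyclic AMP. In skeletal muscle, exercise and adrenergic stimulation are known to induce the NR4A receptors and PPARGC1A, and the CREM gene also encodes ICER, a short repressor made from an internal promoter that limits the response.

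The signals carried the marks of muscle on every array. The 8 tested skeletal muscle markers, among them creatine kinase (CKM) and titin (TTN), had summed signals of 386209 to 585503 in Korean native pigs, against 511561 to 789098 in Yorkshire pigs. Array quality differed between arrays of the same breed. The 3' signal of housekeeping controls exceeded their 5' signal by 3.37 log2 units on Korean native pig 1 and by 3.07 on Yorkshire 3, against 0.88 to 1.74 on the other 6 arrays. Spiked hybridisation controls were bright on replicates 1 and 3 of both breeds, at 13.13 to 13.36 log2 units, and dim on replicates 2 and 4, at 12.06 to 12.54. Markers of macrophages and lymphocytes, 3 of 7 tested, summed to 4694 on Korean native pig 4, against 1080 to 1158 on the other Korean native pig arrays and 1106 to 2112 on the Yorkshire arrays. Of the nerve and Schwann cell markers, 2 of 5 tested, the summed signal was 976.4 to 1611 in Korean native pigs, against 539.8 to 1105 in Yorkshire pigs. The higher sums came from MBP, at 548 to 1187 in Korean native pigs, against 190 to 491 in Yorkshire pigs, while S100B overlapped, at 300 to 451 in Korean native pigs, against 340 to 647 in Yorkshire pigs. All 5 tested fibroblast and matrix markers of 7 had log2 differences (Korean native pig minus Yorkshire) below 0, with a median of -0.34. Of 5 tested adipocyte markers 4 were below 0, with a median of -0.52. Of 4 tested smooth muscle and pericyte markers 3 were below 0, with a median of -0.35. Endothelial and red cell markers had medians of -0.07 and 0.07. The part of these markers in the results below was not tested. Signals below 91.5, the 95th percentile of 23 negative control probe sets, are called near background. None of the markers was at 0, but some were near background on at least 1 array. These were the adipocyte markers LEP and ADIPOQ, endothelial ENG, lymphocyte CD3E, and red cell HBM and ALAS2. The lowest value was 22.6, for LEP on Korean native pig 2.

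CREM, a transcription factor of the CREB family that binds cyclic AMP response elements, was lower in Korean native pigs on 2 of its 4 probe sets, without overlap between the breeds. Probe set Ssc.2841.1.S1_at gave signals of 924, 1299, 1326 and 1989 in Korean native pigs 1 to 4, and of 9135, 3479, 7492 and 4955 in Yorkshire pigs 1 to 4. The highest Korean native pig lay below the lowest Yorkshire pig, by 0.80 log2 units. The mean signal was 1384 ± 443 in Korean native pigs, against 6265 ± 2531 in Yorkshire pigs (SD, n = 4 each), a log2 difference of -2.11 against a pooled SD of 0.54 between arrays of one breed. All log2 differences here are Korean native pig minus Yorkshire, on log2(signal + 32).

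Another CREM probe set, Ssc.2841.2.S1_a_at, showed the same separation on the same arrays, so it is no independent repeat. Its signals were 360, 524, 310 and 746 in Korean native pigs 1 to 4, and 2681, 1172, 1713 and 1331 in Yorkshire pigs 1 to 4. Again the breeds did not overlap, and the log2 difference was -1.77 with a pooled SD of 0.52. On both probe sets Korean native pig 4 was the highest of its breed, Yorkshire 2 the lowest and Yorkshire 1 the highest. The log2 ratio of the first to the second of these probe sets was 1.31 to 2.09 in Korean native pigs, against 1.57 to 2.13 in Yorkshire pigs, so that they moved together to within less than a log2 unit on every array.

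The remaining CREM probe sets, both numbered Ssc.7444 where those above are numbered Ssc.2841, did not share the pattern. Ssc.7444.2.S1_at had signals of 339, 316, 380 and 266 in Korean native pigs 1 to 4, and of 352, 242, 403 and 171 in Yorkshire pigs 1 to 4. The ranges overlapped, and the log2 difference was 0.19, less than the pooled SD of 0.38. It changed sign to -0.01 without Yorkshire 4 and to -0.06 on the arrays of bright hybridisation controls alone. The fourth probe set, Ssc.7444.1.A1_at, was near background on all 8 arrays, at 24.0 to 64.6 in Korean native pigs, against 63.8 to 87.8 in Yorkshire pigs, so no fold is given for it. The annotation assigns all 4 probe sets to the same CREM gene and does not say which of its transcripts each one reads, so the disagreement could not be attributed to a transcript.

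**Figure D1:**
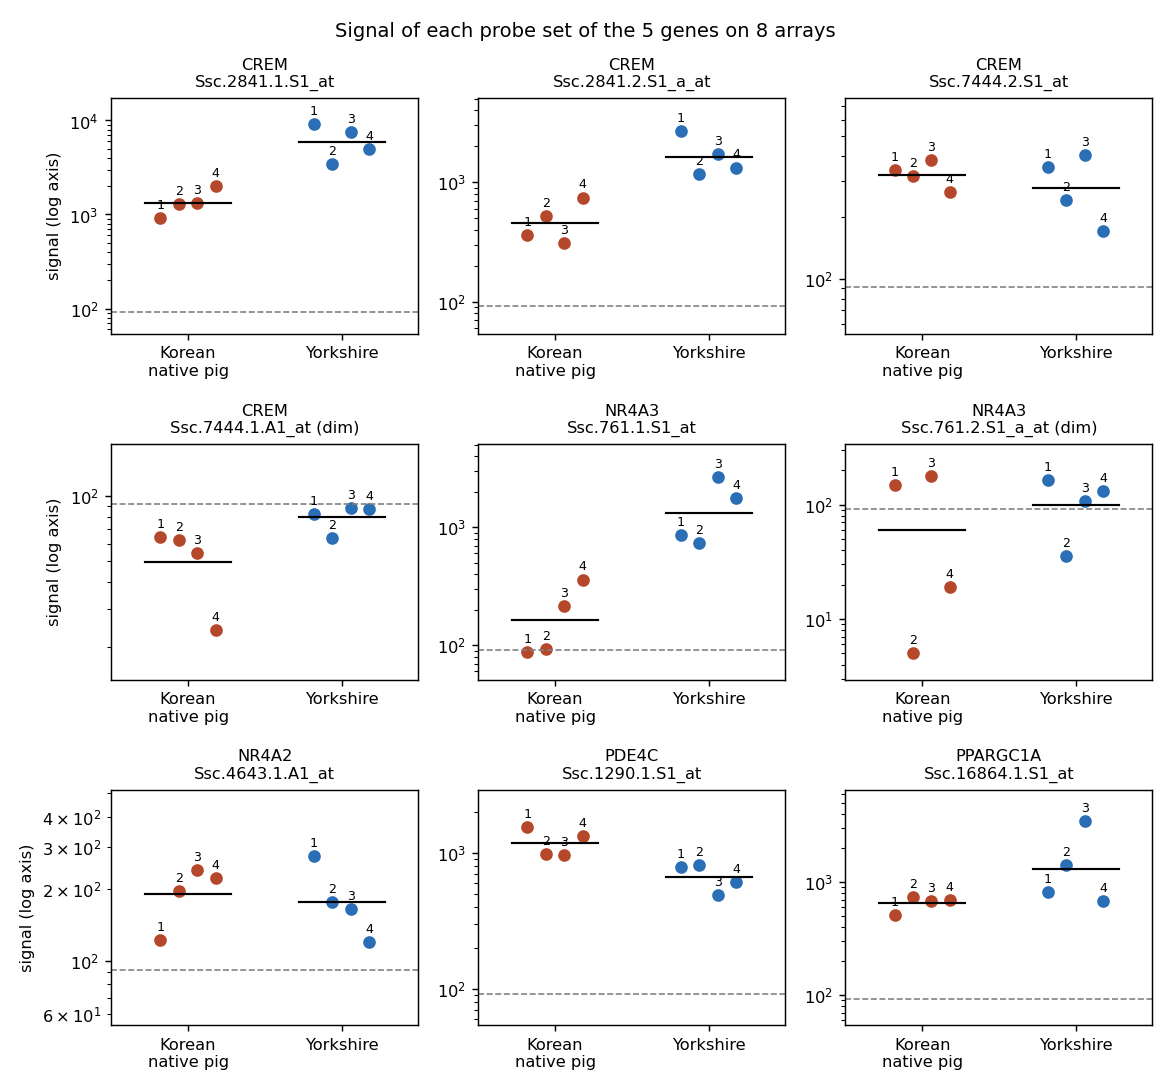
Signal (log axis) of the 9 probe sets of CREM, NR4A3, NR4A2, PDE4C and PPARGC1A on 4 Korean native pig arrays (left of each panel) and 4 Yorkshire arrays (right), with the replicate number above each point. The black line is the mean of log2(signal + 32) turned back to signal, and the dashed line is 91.5, the 95th percentile of the negative controls. The breeds are apart for 2 CREM probe sets, for the brighter NR4A3 probe set and for PDE4C, and they overlap in the other panels.

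NR4A3, also called NOR1, is an orphan nuclear receptor that acts without a known physiological ligand and is induced rapidly by exercise and adrenergic signals. Probe set Ssc.761.1.S1_at gave signals of 87.0, 92.2, 215 and 361 in Korean native pigs 1 to 4, and of 853, 730, 2688 and 1783 in Yorkshire pigs 1 to 4. The breeds were apart by 0.96 log2 units at their nearest arrays. The log2 difference of -2.79 was the lowest of all 14399 probe sets tested, and that of CREM was the next lowest. Within a breed NR4A3 varied widely, with an SD of 0.83 log2 units in Korean native pigs, against 0.87 in Yorkshire pigs. As for CREM, Korean native pig 4 was the highest of its breed and Yorkshire 2 the lowest. Since Korean native pig 1 was near background and Korean native pig 2 just above it, the size of this difference depends on the pseudocount, at -3.05 for log2(signal + 1) and -2.29 for the larger pseudocount tried. The second NR4A3 probe set, Ssc.761.2.S1_a_at, was too dim to be tested. It ranged from 5.02 to 179 in Korean native pigs and from 35.4 to 165 in Yorkshire pigs, and 3 of the 8 arrays were near background.

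NR4A2, or NURR1, is the paralogue of NR4A3 in the same receptor family and is likewise an early response gene. It did not follow NR4A3. Its signals were 122, 195, 240 and 222 in Korean native pigs 1 to 4, and 273, 176, 164 and 120 in Yorkshire pigs 1 to 4. The breeds overlapped over most of their ranges, and the log2 difference was 0.09 with a pooled SD of 0.39. The sign turned to -0.07 without Yorkshire 4, to -0.01 without Korean native pig 3 and to -0.26 on the bright arrays alone. NR4A1, the remaining member of the family, was not analysed here.

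PDE4C, a phosphodiesterase that hydrolyses cyclic AMP, was the only one of the 5 genes with all Korean native pig arrays above all Yorkshire arrays. Probe set Ssc.1290.1.S1_at gave signals of 1553, 984, 964 and 1333 in Korean native pigs 1 to 4, and of 792, 818, 495 and 614 in Yorkshire pigs 1 to 4. The gap between the nearest arrays, 0.23 log2 units, was narrower than those of CREM and NR4A3. The log2 difference was 0.80 with a pooled SD of 0.33, a 1.74-fold difference. The gene was the least variable within breeds of those that separated, with the highest array 1.61 times the lowest in Korean native pigs, against 1.65 times in Yorkshire pigs.

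PPARGC1A encodes PGC-1alpha, the coactivator that drives mitochondrial biogenesis and oxidative gene expression in muscle. Probe set Ssc.16864.1.S1_at had signals of 510, 745, 685 and 694 in Korean native pigs 1 to 4, and of 818, 1428, 3478 and 683 in Yorkshire pigs 1 to 4. The Korean native pig arrays lay close together, with an SD of 0.23 log2 units, while the Yorkshire arrays spread over an SD of 1.03, and the breeds overlapped. Yorkshire 3, one of the 2 arrays with a high 3' to 5' ratio, was the highest of all. The log2 difference was -0.96 with all arrays, -0.49 without Yorkshire 3, and -0.38 when Korean native pig 1 was left out as well.

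Of the 9 probe sets 7 passed the filter on dim signals, and on 4 of these the breeds did not overlap, 3 lower and 1 higher in Korean native pigs. Over all probe sets tested the breeds did not overlap in 2.56%, with 1.19% lower and 1.37% higher in Korean native pigs. The 5 genes were picked from this contrast, so nothing is read from that count. By limma with Benjamini-Hochberg adjustment, 0 of 14399 probe sets (0%) passed an adjusted p of 0.05, and 570 (3.96%) had an unadjusted p under 0.05.

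The size of the difference on the 2 CREM probe sets that separated depended on which arrays were compared. Its sign could not change in any subset of the arrays, since the breeds do not overlap, and the same holds for NR4A3 and PDE4C. Within the bright hybridisation class, with 2 arrays of each breed, it was -2.87 for the first probe set and -2.57 for the second, and on the 4 dim arrays it was -1.35 and -0.96. For NR4A3 these values were -3.18 and -2.41, for PDE4C 0.93 and 0.67, and for PPARGC1A -1.47 and -0.44. Without Korean native pig 1 and Yorkshire 3, which had the high 3' to 5' ratios, the differences were -1.82 and -1.64 for the 2 CREM probe sets, -2.22 for NR4A3 and 0.54 for PDE4C. The part of array brightness in these sizes was not tested. With 1 array left out at a time the first CREM probe set stayed between -2.36 and -1.90, the second between -1.99 and -1.53, NR4A3 between -3.13 and -2.46, and PDE4C between 0.67 and 0.90.

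**Figure D2:**
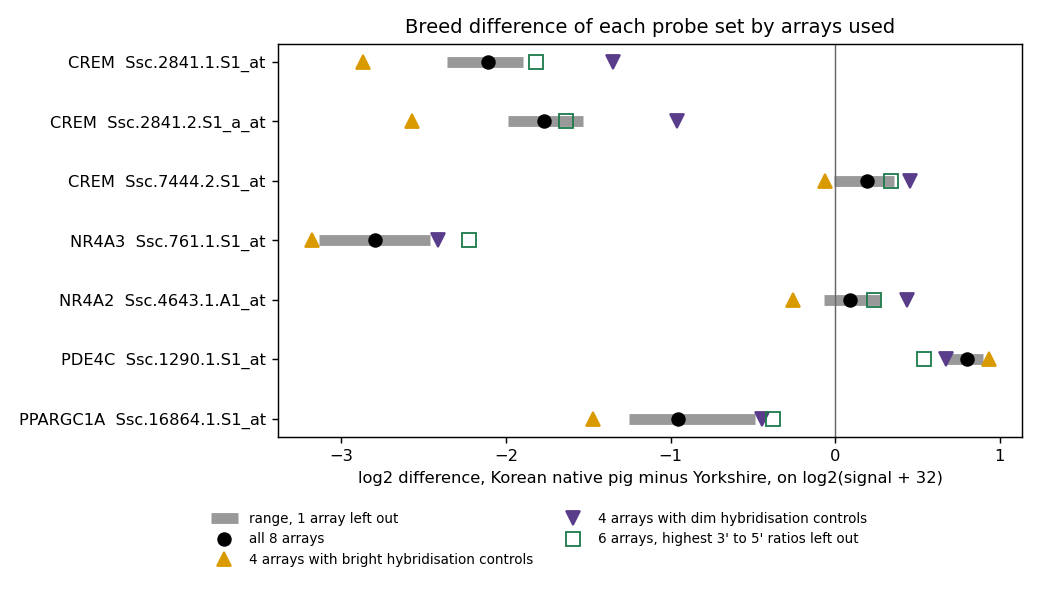
Log2 difference (Korean native pig minus Yorkshire, on log2(signal + 32)) of the 7 probe sets that passed the filter on dim signals. Black points use all 8 arrays, grey bars span the values with 1 array left out, triangles use the 4 arrays with bright (up) or dim (down) hybridisation controls, and squares leave out the 2 arrays of highest 3' to 5' ratio. The first 2 CREM probe sets and NR4A3 lie below 0 and PDE4C above 0 throughout, as must follow where the breeds do not overlap. The third CREM probe set and NR4A2 lie on both sides of 0.

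Likeness of profile was measured as the root mean square difference between the mean-centred log2 signals of 2 genes over the 8 arrays, with each gene represented by its brightest probe set. The gene nearest to NR4A3 among the other 5330 was CREM, at 0.72 log2 units, where the median gene was at 1.61. The genes nearest to CREM, whose median distance was 1.21, were RCAN1 at 0.52, RRAD at 0.59, ABRA at 0.64, DLGAP4 at 0.69 and C5H12orf45 at 0.70, and NR4A3 was sixth at 0.72. RCAN1 is an inhibitor of calcineurin, RRAD a small GTPase that restrains calcium channels, and ABRA an actin-binding protein of striated muscle. A gene near CREM or NR4A3 must be lower in Korean native pigs to qualify, so the direction of these genes is fixed by the choice. CREM and NR4A3 were themselves chosen for their breed difference, which enters this distance, so their nearness to each other follows in part from that choice. With the breed means removed, an alternative added after the data were seen, CREM was 534th of the 5330 genes in distance from NR4A3, at 0.63 log2 units where the median gene was at 0.79. In distance from CREM, RCAN1 was then 112th, RRAD 1547th, ABRA 39th, DLGAP4 36th and C5H12orf45 598th.

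RCAN1 had signals of 1327 to 1722 in Korean native pigs, against 7132, 1871, 5595 and 2882 in Yorkshire pigs 1 to 4. Yorkshire 1 and Yorkshire 3 were the highest arrays for CREM too, and Yorkshire 2 lay only slightly above the highest Korean native pig for RCAN1. After NR4A3's nearest gene came NFIL3, a repressor of the bZIP class, at 0.93, then the kinase gene DCLK1 at 0.97, the membrane matrix metalloproteinase MMP14 at 1.01 and the serine protease HTRA4 at 1.03. With the breed means removed, NFIL3 was 211th, DCLK1 575th, MMP14 54th and HTRA4 44th in distance from NR4A3. DCLK1, MMP14 and HTRA4 had signals near background on at least 1 Korean native pig array, with lowest values of 40.4, 18.7 and 44.5. PPARGC1A was 20th in the order of distance from NR4A3, at 1.19. PDE4C, which runs the other way, was at 2.02, and NR4A2 at 1.65.

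**Figure D3:**
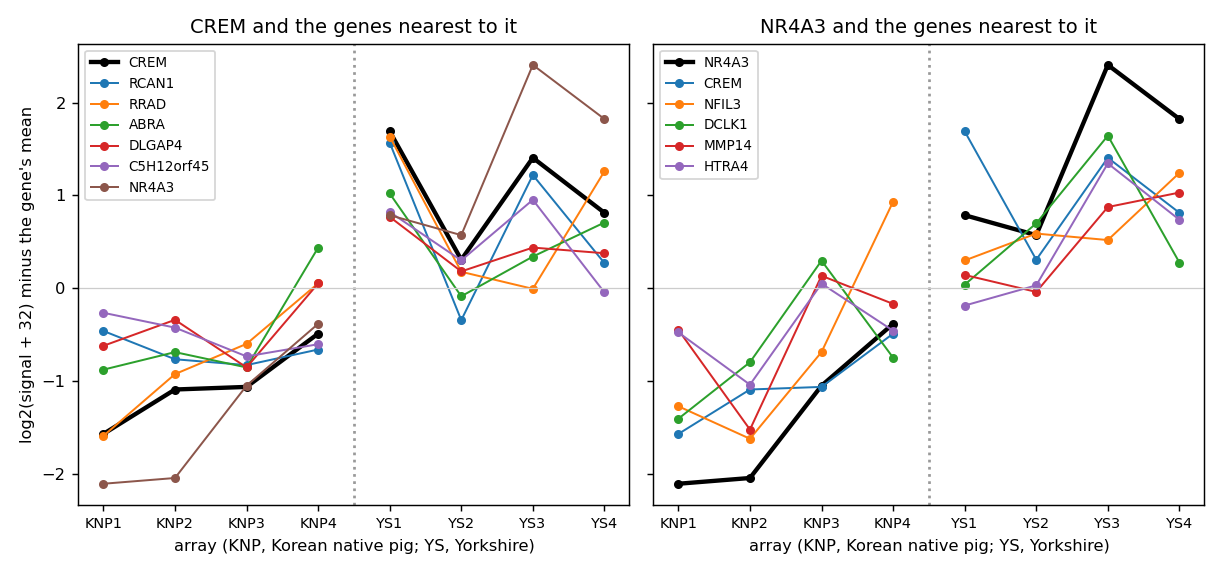
Log2(signal + 32) minus the gene's mean over the 8 arrays, for CREM with its 5 nearest genes and NR4A3 (left panel) and for NR4A3 with its 5 nearest genes (right panel), by array. Lines join the points of a gene within a breed and carry no order. Korean native pig 4 is the highest Korean native pig array and Yorkshire 2 the lowest Yorkshire array for both CREM and NR4A3.

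The rest of the pathway was described from 9 lists of genes ordered by role, with 65 of 156 listed genes tested and some genes in more than 1 list. None passed limma's adjusted threshold in either direction (smallest adjusted p = 0.999). Of the 65 genes 32 had a log2 difference above 0 and 33 below, and their median was -0.0003. Over all 5331 genes tested the split was 2643 above and 2688 below, and the median -0.003. The breeds did not overlap in 2 of the 65, against 2.25% of all genes tested, with 1 higher (1.14% of all genes) and 1 lower (1.11%). At an unadjusted p under 0.05, 4 were higher, AKAP7, CREBZF, PER1 and EGR1, where 1.74% of all genes were, and 2 were lower, NFIL3 and RCAN1, where 1.69% were. The lists were chosen with earlier results of these data known, so nothing is read from these counts or from those without overlap. EGR1 was at 1.17 with overlapping breeds, and a second EGR1 probe set was at 0.31.

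Upstream of cyclic AMP few genes could be read. Of 17 genes of receptors and G proteins 5 were tested, 4 of them above 0, with a median of 0.30, or 0.15 without Yorkshire 1 and 0.06 on the dim arrays. The inhibitory G protein subunits GNAI2 and GNAI1 were at 0.25 and 0.30, and RGS2, a regulator of G protein signalling, at 0.61, where Korean native pig 4 had 1157 against 297 to 320 on the other Korean native pig arrays. The beta adrenergic receptor ADRB3 gave 148 to 301 in Korean native pigs, against 187 to 282 in Yorkshire pigs, in overlapping ranges. No adenylyl cyclase gene was tested. The 2 tested genes of that list were the cyclase-associated proteins CAP2, at -0.13, and CAP1, at -0.002, which are known mainly for binding actin.

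The other phosphodiesterases tested overlapped between the breeds. PDE4B, of the same subfamily, was at 0.43 (SE 0.51), with signals of 657 to 1666 in Korean native pigs, against 183 to 1466 in Yorkshire pigs. PDE4A was at 0.03 and PDE3A at -0.18. Whether PDE4C differed from these genes was not tested.

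Of 10 tested genes of protein kinase A and its anchors 6 were above 0, with a median of 0.02 and a range of -0.34 to 0.84. The highest was the anchor AKAP7, at 0.84 (SE 0.27), with signals of 748 to 1337 in Korean native pigs, against 375 to 841 in Yorkshire pigs, and the lowest was the catalytic subunit PRKACA. PKIA, a peptide inhibitor of the kinase, was at -0.15, the regulatory subunit PRKAR1A at -0.06 and the anchor AKAP13 at -0.27. Of the factors and coactivators around CREB 4 of 18 were tested, with a median of -0.26 (-0.09 without Yorkshire 4 and -0.41 without Yorkshire 2), and 3 of these were below 0. SIK2 and SIK3, kinases that keep CREB coactivators out of the nucleus, were at -0.51 and -0.25, and CREBZF, a bZIP protein of the wider CREB class, at 0.55 (SE 0.22). CREB1 was too dim to be tested.

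Other genes known to be induced by cyclic AMP mostly had differences above 0, the opposite sign to CREM and NR4A3. Of 14 tested genes 11 had a value above 0, with a median of 0.37, or 0.23 on the bright arrays alone. Over all 5331 genes tested 2643 were above 0. At an unadjusted limma p under 0.05, 2 genes of this list were higher and 1 was lower. CEBPB, a bZIP factor, was at 0.28 and the phosphatase DUSP1 at 0.12. The clock gene PER1 was at 0.88, with 4742, 6653, 6385 and 3832 in Korean native pigs 1 to 4, and 3473, 2910, 3499 and 1875 in Yorkshire pigs 1 to 4, and it was the 1 gene of the list whose breeds did not overlap. The 3 genes below 0 were NFIL3 at -1.33, ATF3 at -0.83 and GADD45A at -0.33. Some of the 14 tested genes also belong to the immediate early or clock genes of muscle, and none of the 14 passed the test.

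Downstream of the NR4A receptors, metabolic genes that respond to NR4A in muscle were mostly below 0, and so were the skeletal muscle markers. Of 11 tested 9 were below 0, with a median of -0.39, beside 7 of 8 skeletal muscle markers with a median of -0.31. The part of the marker levels in this shift was not tested. ENO3, PYGM and PGAM2, enzymes of glycolysis and glycogen breakdown, were at -0.41, -0.32 and -0.39. Yorkshire 4 had the highest signal of all arrays for each of them, and the highest summed skeletal muscle markers. The list median was -0.13 without Yorkshire 4, -0.13 with quantile normalisation, -0.02 on the bright arrays and -0.62 on the dim ones.

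Partners and targets of PPARGC1A showed no common direction, with 6 of 11 tested genes below 0 and a median of -0.0003. Cytochrome c (CYCS) was at -0.15, VEGFA at 0.24, and PDK4, the kinase that shuts off pyruvate dehydrogenase, at -1.13 (SE 0.86). TFAM, the mitochondrial transcription factor, averaged 1215 ± 91.2 in Korean native pigs, against 1216 ± 91.6 in Yorkshire pigs (SD, n = 4 each). Of 8 tested genes of calcium and calcineurin signalling 6 were below 0, with a median of -0.30, or -0.09 without Korean native pig 3. The calcineurin subunits PPP3CB and PPP3CA were at -0.06 and 0.02 and the kinase CAMK2D at -0.30. RCAN1, at -1.36 (SE 0.35), was the 1 gene of the list whose breeds did not overlap, and a second RCAN1 probe set was at -0.90.

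**Figure D4:**
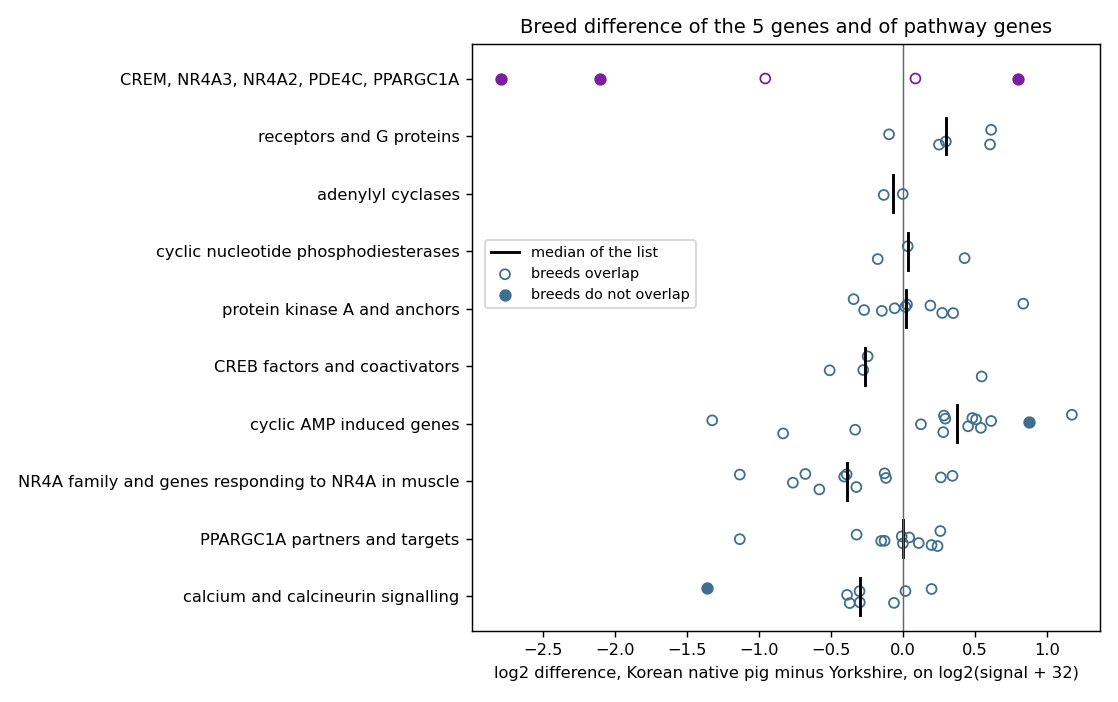
Log2 difference (Korean native pig minus Yorkshire, on log2(signal + 32)) of the brightest probe sets of CREM, NR4A3, NR4A2, PDE4C and PPARGC1A (top row) and of the tested genes of 9 pathway lists. Filled points mark genes whose breeds do not overlap, and black bars mark list medians. NR4A3 at -2.79 and CREM at -2.11 lie beyond every pathway gene, of which the lowest is RCAN1 at -1.36. This must follow, since NR4A3 and CREM were chosen from this contrast and were the lowest of all probe sets tested.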

How the data were processed

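Per the file itself, the authors deposited an intensity on a linear scale for every probe set of each array. GCOS 1.3 stands among the tools of the submitters' processing notes, and the sources used here do not give how probes were summarised. After trimming 2% of values from each end, the mean was 500.1 to 500.2 on all arrays, so the authors had scaled each array to one level and a difference means one against the rest of an array. Symbols came from GEO's platform annotation, with exactly 1 symbol for 10099 probe sets.

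Signals were transformed to log2(signal + 32). The 124 control probe sets and the dimmest 40% of the rest, below about 98.6, were left out, which left 14399. These were fitted by limma 3.58.1 (R 4.3.3; lmFit, eBayes with trend) on all 8 arrays without covariates. A gene was represented by its brightest probe set, which gave 5331 genes. The median standard error of a log2 difference was 0.283, and precision is limited by the number of arrays. The fit was also run on simulated data with independent noise between probe sets, which cannot show how it performs on these arrays.

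The 5 genes and the lists were chosen with earlier results of these data known. From each pathway list the text names the 3 brightest genes and those whose breeds do not overlap, besides the 5 genes nearest to CREM and to NR4A3. ADRB3, TFAM, ATF3, GADD45A, AKAP7, EGR1, and NFIL3 in its list, were added after their values were seen. So were second probe sets of RCAN1 and of EGR1, and PRKACA, MBP, S100B and CREB1. Alternatives were other pseudocounts, filters, scalings and blocks, and arrays left out. Promoter motifs were not analysed here.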

Additional observations from a re-analysis of the deposited data

How the results depend on the processing

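The number of probe sets past limma's adjusted threshold was 0 with all arrays and under every alternative but the replicate block, where it was 1, the brighter NR4A3 probe set. Since NR4A3 was chosen from this same contrast, nothing is read from its passing there. The labels do not pair the arrays by number. Deviations of same-numbered arrays correlated at -0.04, 0.31, 0.10 and 0.05. Korean native pigs 2, 3 and 4 correlated best with the Yorkshire array of their own number, and Korean native pig 1 with Yorkshire 3, at 0.36. These values cannot decide whether the numbers mark pairs. As the labels state none, the main fit used no block. The count of probe sets whose breeds do not overlap, 369 with all arrays, grows where fewer arrays must be separated. It was 4184 on the bright arrays, 4658 on the dim ones, 1381 without the 2 arrays of highest 3' to 5' ratio, and 596 to 863 with 1 array left out. It was 627 with no filter on dim probe sets and 247 with the dimmest 60% left out. The brightest CREM probe set had -2.87 on the bright and -1.35 on the dim arrays, and the cause was not tested. On the 2 brightest CREM probe sets, the brighter NR4A3 probe set and PDE4C the breeds do not overlap. Leaving out arrays or changing the pseudocount therefore could not turn their sign, nor could the blocks, which are balanced over the breeds. Over 17 alternatives they kept it, as did PPARGC1A, whose breeds overlap. The dim NR4A3 probe set was at 0.24 on the bright arrays. Of 162 list medians under alternatives 6 moved by more than the spread between arrays and 19 changed sign. With the larger pseudocount 4 of the 5 genes nearest to CREM and 3 of those nearest to NR4A3 were shared with the main setting.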

Other observations

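Some genes of the pathway lists varied far more between pigs of one breed than between breeds, and these were singled out after their values were seen. PDK4, known to rise with fasting in muscle, had signals of 637, 2669, 20248 and 14876 in Korean native pigs 1 to 4, and of 16956, 5584, 12126 and 10881 in Yorkshire pigs 1 to 4. The highest Korean native pig was thus 31.8 times the lowest, and a second PDK4 probe set had a log2 difference of -1.08, near the -1.13 of the first. ATF3, a stress-induced bZIP factor, had 662 to 3006 in Korean native pigs, against 7814 on Yorkshire 1 and 459 on Yorkshire 2. CEBPD had 5364 on Korean native pig 3, against 913 to 2044 on the other Korean native pig arrays and 940 to 2250 in Yorkshire pigs.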
